A study of Mus musculus with 3 samples.

Results

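MicroRNA levels in intestinal tumour organoids exposed to 5-Aza-CdR were compared with those in wild-type organoids, 2 of the 3 arrays of the series. These arrays were chosen by their titles, 1 for each group, and every probe named for a mouse microRNA was used. The third array, of tumour organoids without the drug in its title, serves as context.

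Normal intestinal epithelium of wild-type mice gave rise to the wild-type organoids. The tumour organoids were grown from intestinal tumours of ApcMin mice, whose Min allele truncates Apc, a negative regulator of Wnt signalling. The treated organoids came from such tumours and received 1 uM 5-Aza-CdR (decitabine), a cytidine analogue that is built into DNA and traps DNA methyltransferases. All cultures grew in Matrigel in a serum-free medium that held R-spondin 1, EGF and Noggin. No label gives the wild-type organoids the drug, so the treated and wild-type arrays differ in genotype, in tissue source (tumour or normal epithelium) and in exposure, and these cannot be told apart. The sources used here do not give the strain, age or number of the mice, the length of exposure or any vehicle. With 1 array per group no difference has a replicate check and no p-value is given.

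MicroRNAs are short RNAs that guide Argonaute proteins to messenger RNAs, mostly by pairing of bases 2 to 8 of their 5′ end, the seed. In the intestinal epithelium miR-192, miR-194 and miR-215 are abundant and are transcribed from a pair of clusters, and the miR-200 family maintains epithelial identity. DNA methylation can silence microRNA genes, and a methyltransferase inhibitor can restore some of them.

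The sequences below are those of the microRNAs on which the comparison turns, taken from RefSeq on GRCm38.p6, with the seed in capitals. The first set is shown because its members were lowest against wild type in treated tumour organoids. miR-192-5p and miR-215-5p share a seed and differ by 3 base edits over 21 bases.
miR-192-5p: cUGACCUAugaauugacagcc
miR-215-5p: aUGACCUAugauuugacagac
miR-194-5p: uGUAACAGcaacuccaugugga

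The next set comprises microRNAs that were higher than in wild type, with relatives of the same seed. Of these pairs, miR-27a-3p and miR-27b-3p differ by 1 base edit, and so do miR-29a-3p and miR-29c-3p. miR-125a-5p and miR-125b-5p differ by 3.
miR-23a-3p: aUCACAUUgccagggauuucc
miR-27a-3p: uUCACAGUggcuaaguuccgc
miR-27b-3p: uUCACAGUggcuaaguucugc
miR-125a-5p: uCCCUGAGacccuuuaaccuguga
miR-125b-5p: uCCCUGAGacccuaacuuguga
miR-99b-5p: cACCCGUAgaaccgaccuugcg
miR-182-5p: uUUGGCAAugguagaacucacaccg
miR-96-5p: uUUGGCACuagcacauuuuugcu
miR-29a-3p: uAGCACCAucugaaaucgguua
miR-29c-3p: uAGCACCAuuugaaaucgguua
miR-34a-5p: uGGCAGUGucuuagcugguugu
miR-22-3p: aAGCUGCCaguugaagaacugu

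The last set was lower than in wild type. The 3 miR-378 relatives shown share most of their length, and no pair of them shares a seed. miR-103-3p and miR-107-3p differ by 1 base edit.
miR-378b: cUGGACUUggagucagaaga
miR-378c: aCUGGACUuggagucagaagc
miR-378d: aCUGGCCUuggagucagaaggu
miR-103-3p: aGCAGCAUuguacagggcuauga
miR-107-3p: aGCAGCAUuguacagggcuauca
miR-6412: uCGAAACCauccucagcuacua

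The 1265 microRNA probes had a single spot per array, and spots are quoted below as scanner signal above the mean of the blank spots. A probe was called detected above the blank mean plus 2 SD, which held for 954 probes on the wild-type, 959 on the untreated and 914 on the treated array. Of these, 413, 410 and 408 were also brighter than the brightest negative control spot. The treated array was dimmer in its spike controls, synthetic targets present at 8 spots of each kind: the first kind averaged 5007 ± 339 (SD over spots) on it and 8030 ± 464 on the wild-type array. Spots of 1 kind varied by 4.77 to 10.1% within an array, which covers spot noise only and leaves out differences between cultures, extractions and hybridisations. Differences are therefore given as normalized log2 differences, treated tumour minus wild type, after addition of an offset of 50 and quantile normalization, and this offset draws the differences of dim probes towards 0.

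Among 1027 probes detected on at least 1 of the 2 arrays, 13 were 2-fold or more above wild type in treated tumour organoids and 14 were 2-fold or more below it, or 1.27% and 1.36% of them. The remaining probes were close to wild type, with 953 of the 1027 inside 1.5-fold and a median log2 difference of -0.005. The intestinal epithelial microRNAs lay furthest below wild type, with miR-215-5p lowest and miR-194-5p and then miR-192-5p above it. Those furthest above it were miR-3473e, miR-3473a, miR-23b-3p and miR-3473b. In the authors' values, which are the blank-subtracted signals scaled to a common median, 13 of these 13 higher and 12 of the 14 lower probes were also 2-fold different. Those values, which have no offset, put 39 probes in all 2-fold higher and 60 lower. Scaling to the spike controls moved the median of all 1027 probes to 0.67 and turned the counts to 67 higher and 3 lower, so that the near-equal split holds only relative to the bulk of the probes.

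**Figure D1:**
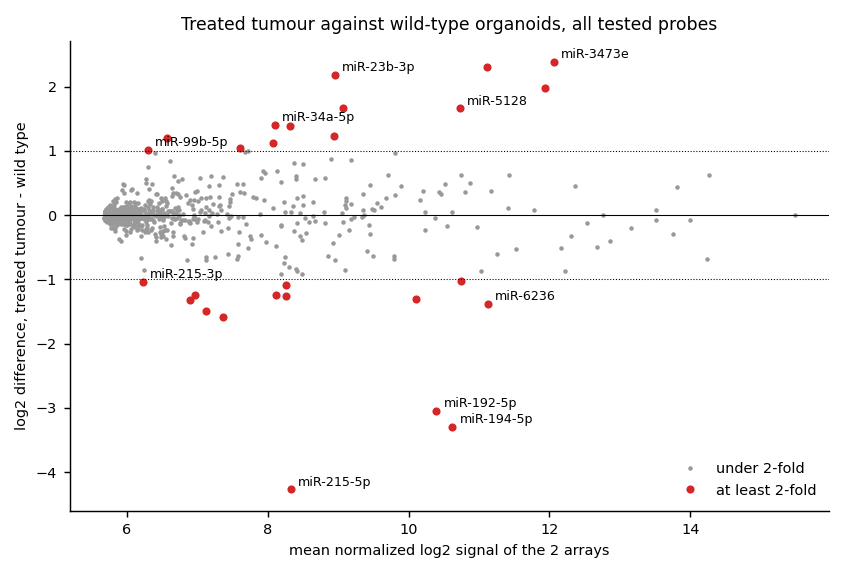
Log2 difference between treated tumour and wild-type organoids (vertical axis) against the mean normalized log2 signal of the 2 arrays (horizontal axis), 1 point per tested probe. Red points are the 27 probes at 2-fold, the dotted lines mark 2-fold, and the dim probes at the left crowd around 0; miR-215-5p lies lowest at -4.26.

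Of the probes 2-fold different from wild type on either tumour array, 18 were so on both, 9 on the untreated array alone and 9 on the treated array alone. Both comparisons use the same wild-type array, so the sides and counts of all 36 are not independent between the 2 comparisons. The untreated comparison had 13 higher and 14 lower of 1040 probes, 1.25% and 1.35%. The treated and untreated arrays themselves differed by 1.5-fold or more for 5 of these 18 probes. The 5 were miR-711 and miR-5129-5p, which lay nearer wild type with the drug, and miR-34a-5p, miR-27a-3p and miR-6412, which lay further from it. In the same setting 1 of 1015 probes, 0.0985%, was 2-fold higher on the treated than the untreated array and 0 were 2-fold lower. In the authors' values miR-5129-5p was 876 in untreated and 426 in treated organoids and miR-6412 2356 and 1175, so both were 2-fold lower there. miR-34a-5p, at 368 and 698, was also past 1.5-fold in those values. miR-711, at 14945 and 21675, and miR-27a-3p, at 544 and 773, were under 1.5-fold there, so their place among the 5 depends on the normalization.

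**Figure D2:**
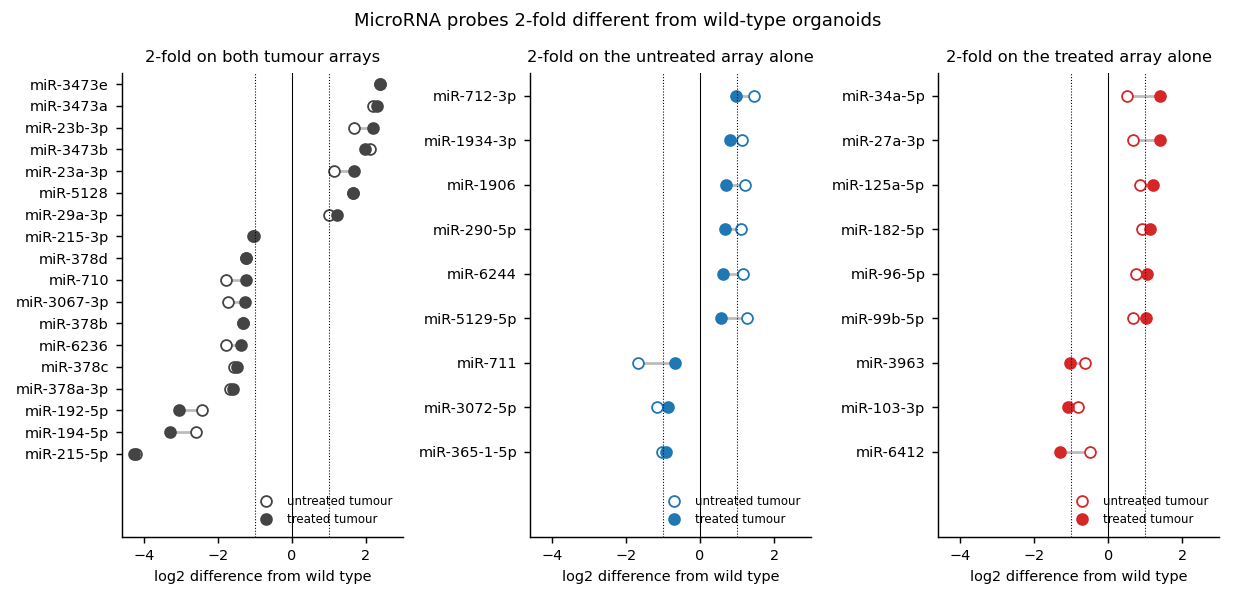
Log2 difference from wild type for the 36 probes that reached 2-fold on either tumour array, open points for untreated and filled points for treated tumour organoids, in 3 panels by where 2-fold was reached. Dotted lines mark 2-fold. miR-711 in the middle panel and miR-34a-5p in the right panel show the longest gaps between points, 0.98 and 0.91. In the authors' values miR-711 was 14945 in untreated and 21675 in treated organoids, under 1.5-fold apart.

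The microRNAs of the intestinal epithelium stayed low on the treated array and made up the lowest 3 probes. The signal above blank of miR-215-5p was 1241 in wild-type, 33.4 in untreated tumour and 19.7 in treated tumour organoids. Both tumour arrays thus lay far under wild type, and the treated array was 19.2-fold lower, a log2 difference of -4.26 (-6.02 to -2.37 over 8 other settings). In the authors' values it was 2656 in wild-type and 41.0 in treated organoids.

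miR-194-5p, whose mature form comes from both clusters, had signals of 3483, 877 and 369 in wild-type, untreated and treated organoids. miR-192-5p followed the same order at 2210, 800.5 and 347. They were lower in treated than in wild-type organoids by log2 differences of -3.29 and -3.04. Here the drug-exposed organoids lay further from wild type than the untreated ones, by -0.69 and -0.60, and these were the only 2 of the 18 shared probes whose 2 tumour arrays differed by 1.5-fold or more. When the background came from the files' per-spot column and not from the blank spots, miR-194-5p was at -0.35 and miR-192-5p at 0.50, so the size of both and the direction of miR-192-5p depend on the background used.

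The cluster of miR-194-1 and miR-215 lies at chr1:185313319-185313692 on the plus strand, and that of miR-194-2 and miR-192 at chr19:6264643-6264932, also on the plus strand. All 7 probes of these clusters were lower in treated than in wild-type organoids, with a median of -1.04 against -0.005 over all tested probes. Of the 7, 4 were 2-fold lower, against 1.36% of all probes. Per-spot background brought the median of the 7 to 0.008 and spike scaling to -0.22, so the shift of the clusters as a whole depends on these settings. The 3p arms were dim. miR-215-3p had a signal of 46.6 in wild-type and 1.64 in treated organoids, just over the detection limit there, and a log2 difference of -1.04 that the offset compresses (-4.65 with the blank mean subtracted, 0.12 with the per-spot column). miR-192-3p was at -0.85, miR-194-1-3p at -0.26 and miR-194-2-3p at -0.17.

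The epithelial miR-200 family lay close to wild type. Its 9 tested probes ranged from -0.17 to 0.19, with a median of 0.04. None reached 2-fold, near the 1.27% higher and 1.36% lower of all probes, so that count is no result about the family. miR-200b-3p had signals of 1335, 1518 and 1130 and miR-200c-3p of 669, 896 and 669.7 in wild-type, untreated and treated organoids. The probes of both arms of miR-375, a microRNA of enteroendocrine and other secretory cells, parted from each other, with miR-375-3p at -0.70 and miR-375-5p at -0.01.

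**Figure D3:**
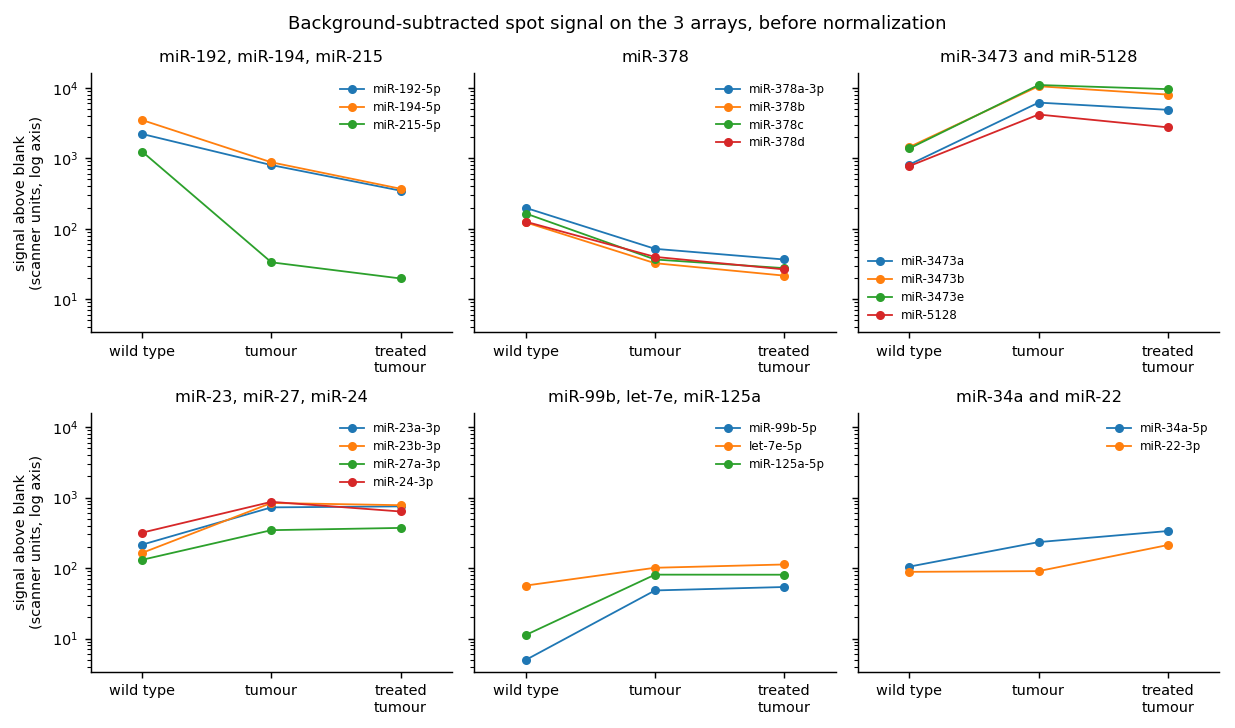
Signal above blank in scanner units (log axis), before normalization, on the wild-type, untreated tumour and treated tumour arrays (1 array each) for 6 groups of microRNAs; the lines join the values of 1 probe. The signal of miR-215-5p runs from 1241 to 19.7, while those of miR-34a and miR-22 are highest on the treated array.

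The miR-378 relatives were also lower than in wild type on both tumour arrays. miR-378a-3p, processed from an intron of Ppargc1b, had signals of 198, 51.9 and 36.6 in wild-type, untreated and treated organoids. Its log2 difference in treated organoids was -1.59, that of miR-378c was -1.49, that of miR-378b -1.33 and that of miR-378d -1.24. The treated and untreated arrays differed by 0.08 for miR-378a-3p, by 0.084 for miR-378c and by 0.00 for miR-378b and miR-378d. The 0.00 arises because quantile normalization gives equal values to probes of equal rank. In the authors' values miR-378b was 51.2 in untreated and 45.0 in treated organoids, and miR-378d 63.0 and 55.2. The printed sequences of miR-378b, miR-378c and miR-378d overlap over most of their length, so these probes may share signal. In the authors' values the log2 differences of the 4 probes between treated and wild-type organoids ran from -2.61 to -2.29. miR-378c and miR-378d turned to 0.19 and 0.15 with the per-spot background column.

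Less-studied probes that were lower on both tumour arrays were miR-6236 (-1.38), miR-3067-3p (-1.26) and miR-710 (-1.25). Their differences in untreated organoids were -1.77, -1.74 and -1.79, so all 3 lay nearer wild type on the treated array, by 0.39 to 0.54. miR-6236 had signals of 2145, 1358 and 1123 in wild-type, untreated and treated organoids. It was under 2-fold in the authors' values, at -0.97.

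Of the probes higher on both tumour arrays, 4 share a stretch of 9 bases, GAGAUGGCU, in capitals in the sequences that follow. They are shown because these 4 were the only ones of 1020 probes with a RefSeq sequence to hold it, 0.392%, and all 4 were 2-fold higher. No mature sequence held its reverse complement. The stretch was derived from these same 4 probes after their values were known, so its presence in them is no finding. The mouse B2 family of short interspersed repeats carries a closely similar stretch.
miR-3473a: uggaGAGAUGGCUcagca
miR-3473b: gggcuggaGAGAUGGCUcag
miR-3473e: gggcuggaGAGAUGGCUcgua
miR-5128: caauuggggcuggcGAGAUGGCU

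The signal of miR-3473e was 1380 in wild-type, 10955 in untreated and 9575 in treated organoids. That of miR-3473b was 1448, 10521 and 8018. The tumour arrays lay far above wild type for both, and in treated organoids miR-3473e was 5.21-fold and miR-3473b 3.93-fold higher. miR-3473a (813, 6166 and 4869) and miR-5128 (775, 4177 and 2748) followed, at log2 differences of 2.31 and 1.66. After quantile normalization the treated array differed from the untreated one by no more than 0.14 for any of the 4. For miR-3473e and miR-5128 this difference was 0.00 because their ranks were equal on both arrays. miR-3473c and miR-3473d bear the family name but lack the stretch, and their differences were 0.05 and 0.03. The genes lie on different chromosomes: Mir3473e at chr5:31667231-31667340 (minus strand), Mir3473b at chr10:41670739-41670793 (plus), Mir3473a at chrX:162874918-162874995 (minus) and Mir5128 at chr2:37688201-37688284 (minus). On the treated array all 4 remained 2-fold higher in every one of the 8 other settings, as did miR-23b-3p. On the untreated array the per-spot background column turned miR-3473b to -1.47 and miR-23b-3p to -0.99.

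The miR-23 microRNAs were higher on both tumour arrays. miR-23b-3p had signals of 164, 838 and 779.6 and miR-23a-3p of 215, 726 and 750.3 in wild-type, untreated and treated organoids. In treated organoids they were 4.55-fold and 3.18-fold higher than in wild type. Their treated differences, 2.19 and 1.67, were larger than the untreated ones of 1.69 and 1.13. miR-23a and miR-23b are nearly identical, so their probes may share signal.

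miR-23a is transcribed with miR-27a and miR-24-2 from a cluster at chr8:84208518-84208921 on the plus strand. miR-27a-3p, which reached 2-fold on the treated array alone, had signals of 131, 345 and 371. Its difference from wild type was 0.66 in untreated and 1.39 in treated organoids, a step of 0.73 between the tumour arrays. miR-24-3p, the third member, stayed under 2-fold at 0.85 in treated and 0.90 in untreated organoids, and its signals were 318, 870 and 634.6. Of the opposite arms, miR-23a-5p was at -0.30, miR-27a-5p at -0.01 and the dim miR-24-2-5p at 0.21. miR-27b-3p, 1 base edit from miR-27a-3p, was at 0.56. Taking the background from the per-spot column gave 0.04 for miR-27a-3p and 0.86 for miR-23a-3p.

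miR-29a-3p, one of the microRNAs that in human cells target the de novo DNA methyltransferases, was the last of the 7 probes higher on both arrays. Its signals were 225, 722 and 589 in wild-type, untreated and treated organoids, and its treated difference was 1.23. The per-spot background column took it to 0.49 in treated and to -0.43 in untreated organoids, so the call and the untreated direction depend on that setting. miR-29b-3p (0.79) and miR-29c-3p (0.58), with the same seed, were higher by less than 2-fold, while miR-148a-3p, another microRNA that targets a methyltransferase, was at -0.64. Of the 10 tested probes of methyltransferase-targeting microRNAs, 1 was 2-fold higher and 0 lower, against 1.27% and 1.36% of all probes. Their median was 0.03. The 1 probe was miR-29a-3p.

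On the treated array alone, 6 probes were at least 2-fold higher. miR-34a-5p, a direct transcriptional target of p53 that restrains the cell cycle, had signals of 105, 233 and 335 in wild-type, untreated and treated organoids. It was thus higher on each tumour array, and 2.65-fold higher on the treated one. Its log2 difference was 0.49 without and 1.41 with the drug, and the step of 0.91 was the largest among these 6 probes. Its passenger arm miR-34a-3p was dim and at 0.20. The per-spot background column brought miR-34a-5p to 0.17, and the other settings kept it at or above 1.32. Of the 24 tested p53-induced probes, 1 was 2-fold higher and 4 lower, against 1.27% and 1.36% of all probes. The 4 lower ones are the intestinal probes already described, miR-215-5p, miR-215-3p, miR-192-5p and miR-194-5p, which that list also holds.

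miR-125a-5p and miR-99b-5p are made from 1 cluster with let-7e, at chr17:17830194-17830879 on the plus strand. miR-125a-5p had signals of 11.2, 80.6 and 80.4 and miR-99b-5p of 4.97, 48.1 and 53.8 in wild-type, untreated and treated organoids. The wild-type spots of both were dimmer than the brightest negative control (15.5), whereas the tumour spots were not. Their treated differences of 1.20 and 1.02 are compressed by the offset, and in the authors' values they were 2.80 and 3.40. With the per-spot background column both lost their difference, at -0.18 and -0.02. let-7e-5p, the remaining 5p arm, was at 0.61 in treated and 0.11 in untreated organoids. The 3p arms miR-125a-3p (-0.17), miR-99b-3p (-0.001) and let-7e-3p (0.09) lay close to wild type. miR-125b-5p, of the miR-125a seed but other loci, was at 0.75.

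miR-182-5p and miR-96-5p belong to the cluster with miR-183 at chr6:30165918-30169737 on the minus strand, which is described as raised in colorectal tumours. miR-182-5p had signals of 121, 386 and 305 and miR-96-5p of 77.6, 224 and 196 in wild-type, untreated and treated organoids. Their differences of 1.12 and 1.04 passed 2-fold on the treated array by a small margin, from 0.91 and 0.76 on the untreated one. miR-183-5p was at 0.50 from a dim wild-type spot of 13.1. Among the 19 tested probes of microRNAs raised in colorectal tumours, 2 were 2-fold higher and 0 lower, against 1.27% and 1.36% of all probes, 14 lay above 0, and the median was 0.20. miR-31-5p (0.87) and miR-21a-5p (0.63), both described as oncogenic in the colon, were among those above 0. With the per-spot background column the median of this list was 5.1e-05.

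On the treated array alone, 3 probes were at least 2-fold lower. miR-6412 had signals of 1368, 1493 and 564 in wild-type, untreated and treated organoids, so the treated array was low against both of the others. Its difference was -0.50 without and -1.30 with the drug. miR-103-3p, which targets Dicer in human cells, was at -1.09 after -0.82 without the drug, and its relative miR-107-3p at -0.84 after -0.88. Per-spot background turned miR-103-3p to 0.19, and spike scaling left it at -0.38. The 2 probes may share signal. miR-3963 was at -1.03 after -0.62, and fell short of 2-fold in the authors' values at -0.96.

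The probes that were 2-fold different in untreated but not in treated organoids were mostly less-studied ones. miR-712-3p had signals of 85.1, 456 and 197 in wild-type, untreated and treated organoids, and its difference was 1.46 without and 0.98 with the drug. miR-5129-5p (130.2, 555 and 205) was at 1.25 without and 0.57 with it. miR-1934-3p (0.81), miR-1906 (0.69), miR-290-5p (0.68) and miR-6244 (0.62) also lay between wild type and untreated tumour on the treated array. Their untreated differences were 1.13, 1.20, 1.11 and 1.16. Taking the background from the per-spot column put miR-5129-5p at -0.02 and miR-6244 at -0.98.

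On the low side, miR-711 had signals of 23203 in wild-type, 9467 in untreated and 10408 in treated organoids. Its difference was -1.67 without and -0.69 with the drug, the largest step of the 9 after quantile normalization. The size of this step depends on that normalization. In the authors' values miR-711 was 14945 in untreated and 21675 in treated organoids, under 1.5-fold apart. Without quantile normalization miR-711 was still 2-fold lower in treated organoids, at -1.20 in the authors' values and at -1.15 and -1.14 after scaling to medians. miR-365-1-5p was at -0.92 after -1.04, and miR-3072-5p, of the imprinted Dlk1-Dio3 cluster, at -0.87 after -1.17.

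miR-22-3p fell just short of 2-fold against wild type. Its signals were 88.3, 90.4 and 212 in wild-type, untreated and treated organoids, so the treated array stood apart from both others. It was the 1 probe 2-fold different between the treated and untreated arrays, by 1.33 on the log2 scale. The treated difference was 1.00 on the log2 scale, or 1.997-fold, after -0.33 in untreated organoids. It was the only one of the 5 probes nearest under the threshold whose untreated value lay on the other side of wild type. In the authors' values it was 1.22. The other 4 just outside were miR-712-3p, miR-205-5p (0.96), miR-709 (0.96) and miR-677-3p (-0.92). The 5 just inside ran from miR-99b-5p at 1.02 through miR-3963, miR-215-3p and miR-96-5p to miR-103-3p at -1.09.

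Of the 1027 tested probes, 73 were detected on the treated array alone and 115 on the wild-type array alone. Their differences have at most a lower bound, which the offset compresses. This bound was above 1-fold for all 73 and for 87 of the 115. Fewer probes were detected on the treated array (914 against 954), so after quantile normalization its lowest detected value lies higher. The contrast between these counts is therefore no result about the probes. The largest bounds were those of miR-802-5p, at least 1.29-fold lower in treated organoids, and of miR-147-3p and miR-152-3p, at least 1.18-fold and 1.14-fold lower. With the blank mean subtracted and no offset, miR-802-5p was at a log2 difference of -3.21. In the other direction miR-22-5p, the opposite arm of miR-22, was at least 1.16-fold higher, from 1.44 in wild-type to 8.39 in treated organoids. miR-152-5p and miR-340-5p each had a bound of 1.10-fold.

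Of the microRNAs described as silenced by DNA methylation, 0 of 39 tested probes were 2-fold higher and 0 lower, near the 1.27% and 1.36% of all probes, so the counts are no result about the list. Of the 39, 18 lay above 0 and 21 below, and the median was -0.005. Among the 11 of them brighter than the negative controls on at least 1 array, miR-342-3p (0.56) and miR-181c-5p (0.40) were highest and miR-375-3p (-0.70) and miR-148a-3p (-0.64) lowest. In the authors' values all 4 passed 2-fold, at 1.51, 1.59, -1.43 and -1.17. The imprinted Dlk1-Dio3 cluster, whose expression depends on allele-specific methylation, had 0 of 75 tested probes at 2-fold and a median of -0.02, from miR-3072-5p at -0.87 to miR-665-5p at 0.48, with miR-667-5p at -0.45. The Sfmbt2 cluster had 0 of 47, within -0.13 to 0.10. The miR-290 and miR-302 clusters of pluripotent cells had 0 of 18, from miR-291b-5p at -0.26 to miR-290-5p at 0.68, with miR-294-5p at -0.26 and miR-292-5p at 0.27. Most probes of these lists were dim, where the offset keeps differences small.

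MYC-repressed microRNAs had 4 of 28 tested probes 2-fold higher and 0 lower, against 1.27% and 1.36% of all probes, with a median of 0.04. miR-16-5p was lowest at -0.63. The 4 were miR-23b-3p, miR-23a-3p, miR-34a-5p and miR-29a-3p, all described above. Among probes of the MYC-induced miR-17-92 family of clusters 0 of 28 were at 2-fold, and over the 19 brighter than the negative controls the median was -0.14. miR-20b-5p (-0.69), miR-106a-5p (-0.64) and miR-17-5p (-0.63) were the lowest of these and miR-92a-2-5p (0.61) the highest. The let-7 family had 0 of 19 at 2-fold and a median of 0.05, from let-7g-5p at -0.47 to let-7e-5p at 0.61, with let-7c-5p at 0.46 and let-7b-5p at 0.21. The list of microRNAs lowered in colorectal tumours had 4 of 25 2-fold lower, against 1.36% of all probes, which were miR-215-5p, miR-194-5p, miR-378a-3p and miR-215-3p.

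Most markers of cells other than epithelium were at or near background on both arrays, and none reached 2-fold with the offset of 50. Their part in the results was not tested. Over all tested probes 1.27% were 2-fold higher and 1.36% lower. Of 24 stromal probes, 5 were brighter than the negative controls on the wild-type and 8 on the treated array, their summed signal was 232 and 275, and 0 reached 2-fold. miR-143-3p (9.75 and 2.30) and miR-145a-5p (4.77 and 2.43), which define smooth muscle and fibroblasts, were dimmer than the negative controls on both. miR-125b-5p (9.73 and 45.8), miR-100-5p (2.90 and 19.7) and miR-99a-5p (2.14 and 19.5) in this list were brighter on the treated array, with miR-214-3p in the other direction (42.6 and 26.6). In the authors' values, which have no offset, miR-125b-5p was at 2.20, miR-100-5p at 2.72, miR-99a-5p at 3.15 and miR-143-3p at -2.13, all past 2-fold. Of the blood cell list, 3 of 11 probes stood above the negative controls on each array, and the summed signal of the list was 367 and 309. The 3 were miR-486-3p (265 and 214), the shared probe of miR-486-5p and miR-3107-5p (59.2 and 54.5) and miR-223-3p (20.7 and 18.2). By contrast, miR-451a, miR-142-3p and miR-144-3p were under the detection limit in treated organoids. The endothelial miR-126-3p was at 4.89 and 4.49, and of 10 neuronal probes 0 were brighter than the negative controls on either array. Apart from these markers, the endocrine and secretory list had 4 of 9 probes brighter than the negative controls on the wild-type and 5 on the treated array. Its summed signal was 333 and 278.

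**Figure D4:**
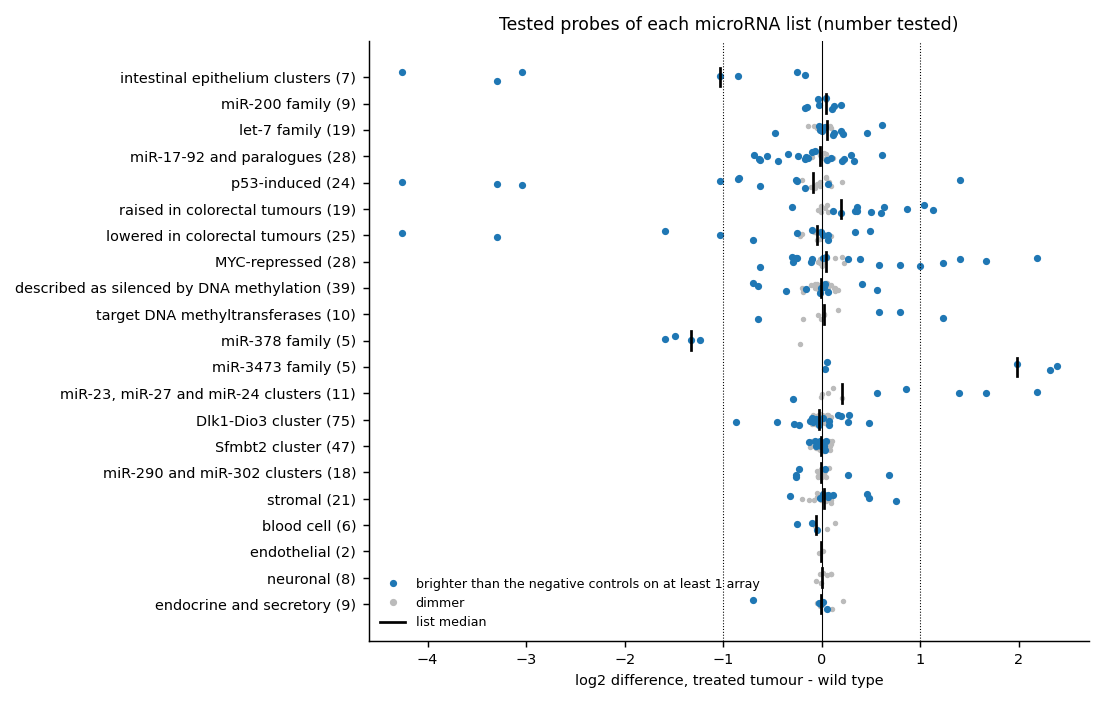
Log2 difference between treated tumour and wild-type organoids for the tested probes of 21 microRNA lists, 1 point per probe, blue where a probe was brighter than the negative controls on at least 1 of the 2 arrays and grey where it was dimmer. Black bars are list medians and dotted lines 2-fold; the medians past 2-fold are those of the intestinal clusters, the miR-378 family and the miR-3473 family. The vertical scatter within a list carries no value.

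Of the 10 brightest probes of the treated and of the wild-type array, 9 were the same. They held 50.2% and 56.8% of the detected signal. miR-3473e was among them on the treated array and miR-762 (-0.40) on the wild-type array. Of the shared 9, miR-711, miR-3968 (-0.30), miR-5109 (-0.19), miR-5100 (-0.08) and miR-6366 (-0.07) were lower and miR-3960 (0.08), miR-2861 (0.44) and miR-5126 (0.63) higher in treated organoids. These sizes depend on the setting. In the authors' values miR-3960 was at -0.08, miR-2861 at 0.21, miR-5126 at 0.17 and miR-5100 at -0.61, and the per-spot background column put miR-2861 at -0.51. miR-2137 ranked first on each array and quantile normalization sets it at 0.

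Processing settings moved many of the probes at 2-fold. Of the 27 probes, 6 were 2-fold different in the same direction in all 8 other settings: miR-215-5p on the low side, and miR-3473a, miR-3473b, miR-3473e, miR-5128 and miR-23b-3p on the high side. The per-spot background column turned 7 probes to the opposite sign, and spike scaling left 3 of the 14 lower probes at 2-fold, which were miR-192-5p, miR-194-5p and miR-215-5p.

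**Figure D5:**
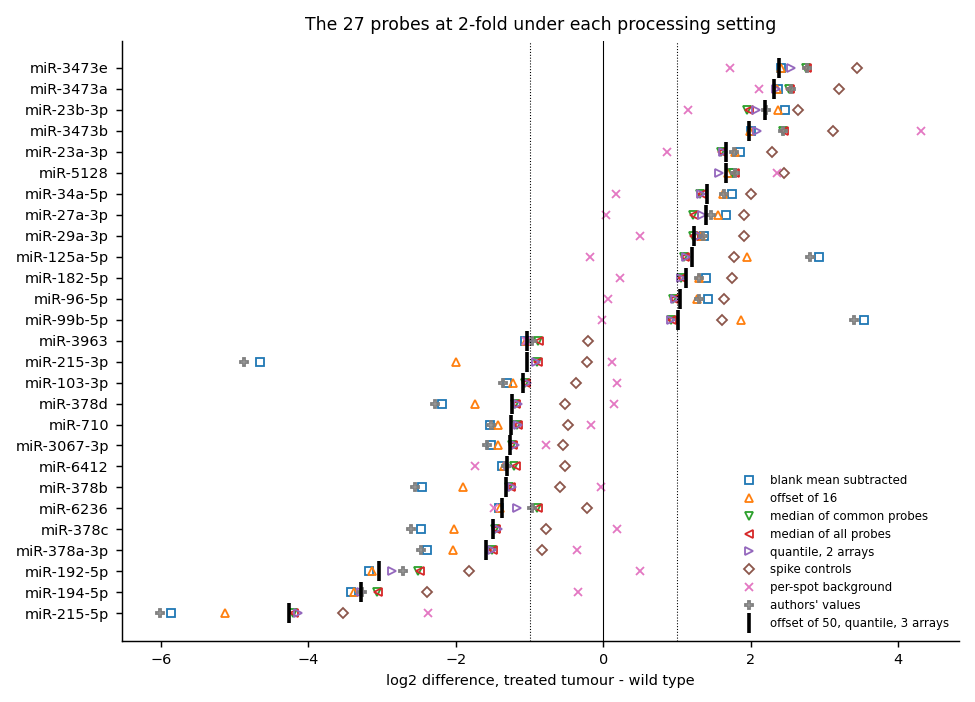
Log2 difference between treated tumour and wild-type organoids for the 27 probes at 2-fold, with a black bar for the value in the text and 1 symbol for each of 8 other settings. Spike scaling lies to the right of the black bar for every probe, and the per-spot background column (crosses) is the setting that takes points across 0.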

How the data were processed

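Total RNA was labelled with Hy5, per the labels' protocols, and hybridised to single-colour arrays. The scans, made at 3 gains per the file headers, give as the deposited intensity a spot's median brightness, with no background taken off. In the authors' value table the intensity is linear in that brightness, is 0 at the blank mean and has a median of 25 on every array, as found by setting both side by side. Neither platform nor scanner software is named in the sources used here.

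Probe spots marked bad at any gain were left out (2 on the wild-type array). Background was then corrected with limma 3.58.1 (R 4.3.3), using the normexp model with mean and SD from the 1664 blank spots (5% trimmed at each end) and an offset of 50. The 1265 probes of the 3 arrays were quantile normalized on the unlogged scale, and log2 was taken afterwards. The per-spot background column served as an alternative only. The files carry no replicate arrays, so no test was run, and the number of arrays limits the precision. The steps were tested on simulated data. Probes were named by the fixed rule: all at 2-fold on either tumour array, the 10 largest differences in each direction, the 3 largest bounds, the 5 probes on each side of the threshold, up to 4 bright members of each of 21 lists, and the 10 brightest. Other members of a gene cluster or arm pair are given because they complete it. Members, lists and rules were chosen with earlier results of these data known. Sequences and loci came from RefSeq (GRCm38.p6), in which 1020 of 1252 single-name probes matched a mature sequence, and genes within 10000 bases on 1 strand were joined as clusters. Python 3.11.15 with numpy 2.4.6, pandas 2.3.3 and matplotlib 3.10.9 did the remaining steps.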

Additional observations from a re-analysis of the deposited data

Results flagged for a closer look

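Outside the microRNA probes, the spot S-Probe1014, whose target the files do not name, was bright on every array. Its signal above blank was 2903 in wild-type, 6539 in untreated and 4655 in treated tumour organoids. On the authors' scale it was 1.56-fold higher in treated tumour than in wild-type organoids and 1.66-fold higher in untreated ones. It was flagged as a signal in data that no comparison uses, and the difference was not tested.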

How the results depend on the processing

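Counts are given in the order higher in treated than in wild-type organoids, lower, 2-fold on both tumour arrays, on the untreated alone and on the treated alone, against 13, 14, 18, 9 and 9 in the text. Subtraction of the blank mean gave 67, 62, 72, 49 and 57, the authors' values gave 39, 60, 50, 40 and 49, and the counts were 67, 3, 32, 14 and 38 with spike scaling, and 34, 40, 53, 18 and 21 at 1.5-fold. With an offset of 16 the first was 22 and the last 14. The untreated-alone count was 30 with the per-spot background column, and scaling to medians gave 15 (probes detected in common) and 22 (every probe). For the treated-alone count these medians gave 5 and 3. Higher probes made up 48.1% of the calls in the text and 95.7% with spike scaling. Limits of 3 SD or the brightest negative control, and detection on every array, left all 5 counts at their values. The SD and negative-control limits could not have changed them. With the offset of 50, a probe at 2-fold is already far brighter on its brighter array than the negative controls, the brightest of which lay 15.5 to 23.6 above blank. Of the 9 untreated-alone and 9 treated-alone probes, 5 and 4 kept their class in the authors' values, and 17 of the 18 shared ones did.

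Among the probes at 2-fold in the comparison in question, signs turned with the per-spot background column alone. In treated against wild-type organoids this gave miR-192-5p 0.50, miR-378c 0.19, miR-103-3p 0.19, miR-378d 0.15, miR-215-3p 0.12, miR-99b-5p -0.024 and miR-125a-5p -0.18. In untreated against wild-type organoids it gave miR-192-5p 0.26, miR-215-3p 0.13, miR-378b 0.016, miR-378c 0.27, miR-378d 0.26, miR-23a-3p -0.49, miR-23b-3p -0.99, miR-29a-3p -0.43 and miR-3473b -1.47. The cause was not tested. These alternatives for untreated organoids were added after the data were seen. No paired analysis was possible because each group has 1 array.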

Other observations

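The values that follow are of microRNAs chosen after their values were seen, and no test bears on them. miR-221-3p stood on opposite sides of wild type on the untreated and treated arrays. miR-221-3p had signals above blank of 50.9, 58.7 and 78.7 in wild-type, untreated and treated organoids, with log2 differences of -0.23 without and 0.36 with the drug. Its cluster partner miR-222-3p was at 11.5, 11.9 and 25.5, with differences of -0.08 and 0.35. The wild-type and untreated spots of miR-222-3p were dimmer than the brightest negative controls (15.5 and 23.6), so the sign of its untreated difference is uncertain. miR-203-3p, a microRNA of stratified epithelia, was at 96.2, 61.4 and 74.3, so that untreated organoids (-0.69) lay further below wild type than treated ones (-0.17). miR-205-5p, another microRNA of stratified epithelia, had signals of 9.11, 64.3 and 56.7, and in the authors' values its difference in treated organoids was 2.60. None of these 4 reached 2-fold with the offset of 50.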
